A study of Mus musculus with 6 samples.

Results

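The genes described here are the immunoglobulin constant region genes Ighm, Ighd, Ighg1, Ighg2b, Ighg2c, Ighg3, Igha, Igkc and Iglc2, together with Jchain. They were taken as the 10 listed symbols, matched by Ensembl gene identifier among the 44678 genes counted in each library, and the list of symbols sets no threshold on a measured value. RNA-seq of splenic CD8a+ leukocytes was available as 3 libraries of wild type mice (WT1 to WT3) and 3 of miR-144/451 KO mice (KO1 to KO3). KO mice lack the genomic segment that holds both microRNA precursors in all their cells, and both groups were on the C57BL/6J background. The mice of the study were 8 to 12 weeks old, and the sequenced cells received no treatment. The study's methods describe magnetic bead sorting of CD11c+ dendritic cells (DCs), of CD8+ T cells and of CD4+ T cells, without saying which preparation was sequenced, and the study introduces the sequencing with a question about DCs. Libraries were made from 1.3 µg of total RNA, and their totals lay between 8143971 and 8876570 counts. The chi-square of counts between libraries of 1 genotype, divided by its degrees of freedom, was 6.17 at the lowest, so no library repeated another of its group. Whether each library came from a separate mouse is not stated, and p-values here measure the spread between these libraries, which may be technical. No batch or date was given in the sample records.

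Antibodies are built from paired heavy and light chains. A naive B cell splices a single long heavy chain transcript to either the Ighm or the Ighd constant exons, and so carries IgM and IgD on its surface. Class switch recombination later joins the same variable segment to a downstream constant gene, which gives IgG (Ighg genes) or IgA (Igha) and removes Ighm and Ighd from that chromosome. Light chains end in the kappa constant region, encoded by Igkc, or in a lambda constant region such as that of Iglc2. J chain is the small protein, made by plasma cells and their precursors, that joins IgM and IgA units into polymers. T cells and DCs include the cells of the spleen known for carrying CD8a, and neither is a main source of antibodies.

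In GENCODE M21 on GRCm38, the build named in the submitters' processing notes, the heavy chain genes lie on the minus strand of chromosome 12. Ighm covers 113418558 to 113422730 and is followed by Ighd from 113406604 to 113416324. Downstream of them lie Ighg3 from 113356224 to 113361232, Ighg1 from 113325240 to 113330523, Ighg2b from 113302965 to 113307933 and Ighg2c from 113285325 to 113288932. Igha is the last, from 113254830 to 113260236. Igkc lies on the plus strand of chromosome 6 from 70726435 to 70726966, Iglc2 on the minus strand of chromosome 16 from 19198396 to 19200351, and Jchain on the minus strand of chromosome 5 from 88519809 to 88527891.

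The last 30 coding bases of the secreted IgM, IgA and IgG heavy chains are shown because they separate the chains that J chain links from the others. Each was read 5′ to 3′ from the coding part of the last exon in the secreted transcript of GENCODE M21, without the stop codon, and capitals mark cysteine codons. The penultimate codon of Ighm and of Igha encodes the tailpiece cysteine through which these chains bond with J chain, and none of the 4 Ighg genes had a cysteine codon within this stretch.
Ighm, chr12:113420870-113420899, minus strand: atcatgtctgacacaggcggcaccTGCtat
Igha, chr12:113258771-113258800, minus strand: atcatgtcagagggagatggcatcTGCtac
Ighg1, chr12:113328979-113329008, minus strand: gagaagagcctctcccactctcctggtaaa
Ighg2b, chr12:113306392-113306421, minus strand: aagaagaccatctcccggtctccgggtaaa
Ighg2c, chr12:113287392-113287421, minus strand: actaagaccatctcccggtctctgggtaaa
Ighg3, chr12:113359668-113359697, minus strand: cagaagaacctgtctcgctcccctggtaaa

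The same stretch of the light chain constant exons carries the cysteine that bonds the light to the heavy chain. It is the last codon of Igkc and the penultimate codon of Iglc2.
Igkc, chr6:70726725-70726754, plus strand: attgtcaagagcttcaacaggaatgagTGT
Iglc2, chr16:19198539-19198568, minus strand: gagaagagtctgtctcctgcagaaTGTctc

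The 4 Ighg genes resemble each other closely, and how well reads tell them apart bears on their counts. Exon 2 encodes the hinge, the flexible arm between the antigen-binding and the effector part of IgG, and differs between the subclasses. It is 63 bases long in Ighg2c, 48 in Ighg3 and 39 in Ighg1. The first 30 bases of exon 2 are shown for these 3 of the 4 genes, with capitals where a base differs from the base of Ighg2c at the same distance from the exon start, with no gaps allowed.
Ighg2c, chr12:113288296-113288325, minus strand: agcccagagtgcccataacacagaacccct
Ighg3, chr12:113360547-113360576, minus strand: agccTagaAtAcccaAGCcCAGTaCccccC
Ighg1, chr12:113329853-113329882, minus strand: TgcccagGgATTGTGGTTGTAagCCTTGcA

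In this stretch Ighg3 differed from Ighg2c at 12 of 30 bases and Ighg1 at 20. Over the whole annotated transcripts, 15.0% of the 31-base words of Ighg2c occur in another gene as well, all of them in other Ighg genes. The corresponding shares were 9.29% for Ighg2b, 3.63% for Ighg3 and 1.72% for Ighg1. Ighg2b and Ighg2c alone have 186 such words in common. Ighm, Igha and Igkc have no 31-base word in common with any other annotated gene, whereas 19.6% of the words of Iglc2 also occur elsewhere, mostly in Iglc3. The counts of Ighg2b, Ighg2c and Iglc2 therefore depend on how the authors' counting divided ambiguous reads, and a comparison of these genes is uncertain to that extent.

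All 10 genes were detected in each of the 6 libraries. Levels are given as CPM, the count of a gene relative to the total of its library after scaling with TMM factors. Together the 10 genes took from 0.420% to 0.885% of all counts in a library, with a median of 0.567%. Per kilobase of annotated exon, Ighm reached 872 to 1521 CPM per kb. On the same scale Cd8a, the gene of the antigen used for the label, reached 131 to 286 CPM per kb, and the T cell receptor component gene Cd3e 53.4 to 98.7 CPM per kb. In a bulk sample of this kind, fewer cells of a type cannot be told apart from less RNA per cell.

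The libraries did not contribute evenly. WT1 had the highest WT level of all 10 genes, and KO2 the highest KO level of 9 of them, the exception being Ighd. WT3 had the lowest WT level of 9 genes, and KO3 the lowest KO level of 7. Between the lowest and the highest of the 6 libraries, levels differed by between 1.74-fold (Ighm) and 4.22-fold (Ighg2c). The biological coefficient of variation that edgeR estimated was between 23.5% and 41.1% for these genes, against a median of 15.0% over the 13024 genes tested. Their dispersions ranked between the 76.1th and the 96.0th percentile of these genes.

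**Figure D1:**
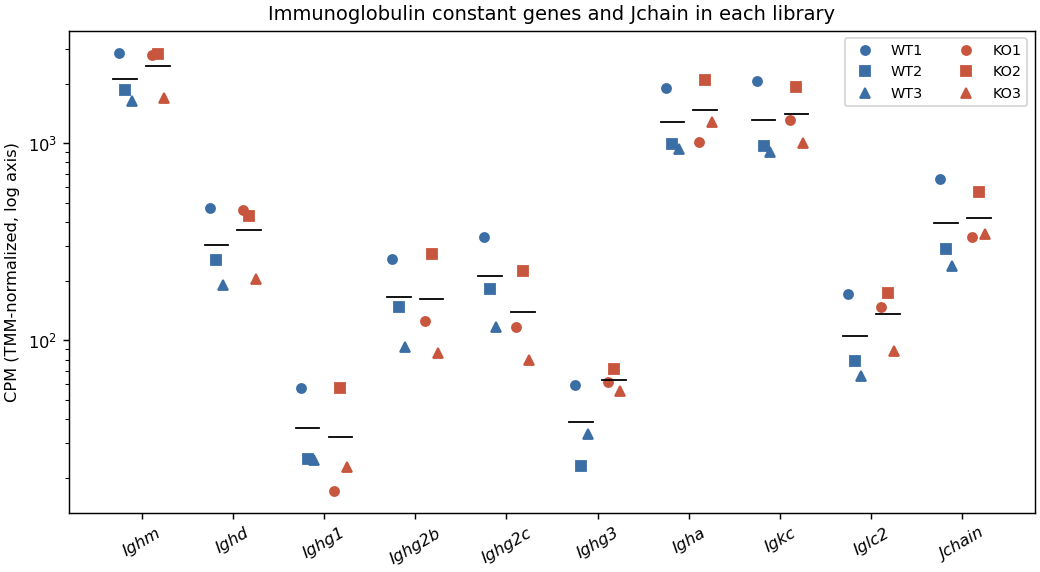
CPM of each gene (log axis) in the 3 WT libraries (blue) and the 3 KO libraries (red), with a symbol for each replicate number and a black line for the group mean. For none of the 10 genes did all KO libraries lie on the same side of all WT libraries, and WT1 had the highest WT point of every gene.

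The levels of the 10 genes were compared with each other per kilobase of exon. In order of their medians over the 6 libraries, Igkc came first with 2183 CPM per kb, followed by Ighm with 1244 and Igha with 433. Iglc2 (192), Ighd (179.9), Jchain (135) and Ighg2c (113 CPM per kb) formed the middle of the order. Ighg2b (51.1), Ighg3 (22.8) and Ighg1 (9.56 CPM per kb) were lowest. The ranges of Igkc, Ighm and Igha over the libraries were separate from each other and from that of Iglc2, the next in order, and the range of Ighg2b (32.3 to 103) was separate from that of Ighg3 (9.22 to 28.6). The ranges of Iglc2, Ighd, Jchain, Ighg2c and Ighg2b overlapped from each to the next, as did those of Ighg3 and Ighg1. When lengths of the secreted transcripts replaced the union of exons, the median was 1571 CPM per kb for Ighm, 1050.0 for Igha and 426 for Ighd, Ighd then came before Iglc2 (257), and the ranges of Igkc, Ighm and Igha overlapped from each to the next. Ighg2c (134) and Ighg2b (123 CPM per kb) were close to each other on that scale. Their unions of exons are 1326 and 2678 bases long, against 1111 and 1114 bases for the secreted transcripts.

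The naive isotypes Ighm and Ighd showed the same pattern over the libraries. Ighm, the constant region of IgM, reached 2869, 1868 and 1645 CPM in WT1 to WT3 and 2823, 2845 and 1703 CPM in KO1 to KO3. WT1, KO1 and KO2 thus lay close together and above the other libraries, and the groups overlapped. The group means were 2127 ± 652 CPM in the WT libraries and 2457 ± 653 CPM in KO libraries (SD, n = 3 each). The fitted log2 change of KO against WT was 0.21 (SE 0.26, edgeR adjusted p = 0.895). Ighd, the constant region of IgD, reached 469.9, 257 and 189.98 CPM in the WT libraries and 457, 427 and 206 CPM in KO libraries. The same libraries were high, and the fitted log2 change of KO against WT was 0.25 (SE 0.38, edgeR adjusted p = 0.91).

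Among the switched isotypes, Igha had the highest level per kilobase of exon in all 6 libraries. Igha, the heavy chain of IgA, the antibody of mucosal surfaces, reached 1914, 994 and 939 CPM in the WT libraries and 1020.4, 2100.5 and 1289.5 CPM in KO libraries. Here WT1 and KO2 stood above the rest, while KO1, which was high for Ighm, was the lowest KO library. The fitted log2 change of KO against WT was 0.20 (SE 0.33, edgeR adjusted p = 0.924).

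Ighg2c encodes the IgG2c heavy chain, which C57BL/6 mice carry in place of IgG2a. It reached 335, 182 and 116 CPM in the WT libraries and 117, 224 and 79.4 CPM in KO libraries. Its log2 fold change of -0.59 was the most negative among the 10 genes, but its standard error was 0.45 and the groups overlapped (edgeR, adjusted p = 0.85). Ighg2b, of the IgG2b heavy chain, reached 258, 148 and 93.1 CPM in the WT libraries and 126, 275 and 86.6 CPM in KO libraries, and its fitted log2 change was -0.03 (SE 0.46, edgeR adjusted p = 0.991).

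Ighg3, whose IgG3 product is typical of responses to polysaccharides without T cell help, had the largest positive fitted change. It reached 59.3, 23.2 and 33.5 CPM in the WT libraries and 61.4, 71.8 and 55.1 CPM in KO libraries. KO1 and KO2 lay above all WT libraries and KO3 lay below WT1, so that the groups overlapped. The fitted log2 change of KO against WT was 0.70 (SE 0.30), or 1.62-fold with a 95% interval from 1.01 to 2.61. The unadjusted p was 0.0471 and the adjusted p 0.786 (edgeR), so Ighg3 did not pass the threshold of 0.05. Ighg1, of the IgG1 heavy chain, had the lowest median per kilobase of exon, and reached 57.6, 24.9 and 24.7 CPM in the WT libraries and 17.2, 57.0 and 22.8 CPM in KO libraries. Its fitted log2 change was -0.15 (SE 0.49, edgeR adjusted p = 0.96).

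Of the light chains, Igkc reached 2081, 971 and 902 CPM in the WT libraries and 1316, 1926 and 1007 CPM in KO libraries. WT1 and KO2 were again the highest, and the fitted log2 change of KO against WT was 0.10 (SE 0.35, edgeR adjusted p = 0.961). Iglc2 reached 172, 79.0 and 66.3 CPM in the WT libraries and 147, 174 and 88.3 CPM in KO libraries. In contrast with Igkc, KO1 was close to WT1 and KO2 for this gene, and the fitted log2 change of KO against WT was 0.37 (SE 0.37, edgeR adjusted p = 0.875). Jchain reached 658, 290.3 and 239 CPM in the WT libraries and 333, 569 and 345 CPM in KO libraries. Its fitted log2 change was 0.07 (SE 0.38, edgeR adjusted p = 0.976).

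None of the 10 genes was called at an adjusted p under 0.05 in KO against WT, where 0.0307% of all tested genes were. At an unadjusted p under 0.05, Ighg3 was the single member, and 6.25% of all tested genes passed this threshold. DESeq2 and limma voom also called none of the 10, each with 1 member at an unadjusted p under 0.05. The KO and WT ranges were separate for 0 of the 10 members and for 11.5% of all tested genes. A total of 7 members had a positive and 3 a negative fitted change, and their median log2 fold change was 0.15, against 0.0030 over all tested genes. The 95% intervals were wide. For Ighm they allowed from 0.768-fold to 1.74-fold in KO against WT, for Igha from 0.672-fold to 1.95-fold, and for Ighg1 from 0.416-fold to 1.96-fold. The direction of Igha, Ighd, Ighg1, Ighg2b, Igkc and Jchain turned when single libraries were left out, and that of Ighg2c, Ighg3, Ighm and Iglc2 did not. Without KO2 the fitted log2 change was -0.15 for Igha, -0.18 for Igkc and -0.22 for Jchain. Without WT1 it was 0.38 for Ighg1 and 0.43 for Ighg2b, and without WT3 it was -0.020 for Ighd. The sizes of the other changes also depended on single libraries. Without WT1, Ighg2c was at -0.10, Ighg3 at 1.15, Ighm at 0.48 and Iglc2 at 0.91, and without KO2 Ighg2c was at -1.11. Without WT3, Ighm was at 0.04 and Iglc2 at 0.10, and without WT2 Ighg3 was at 0.43.

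**Figure D2:**
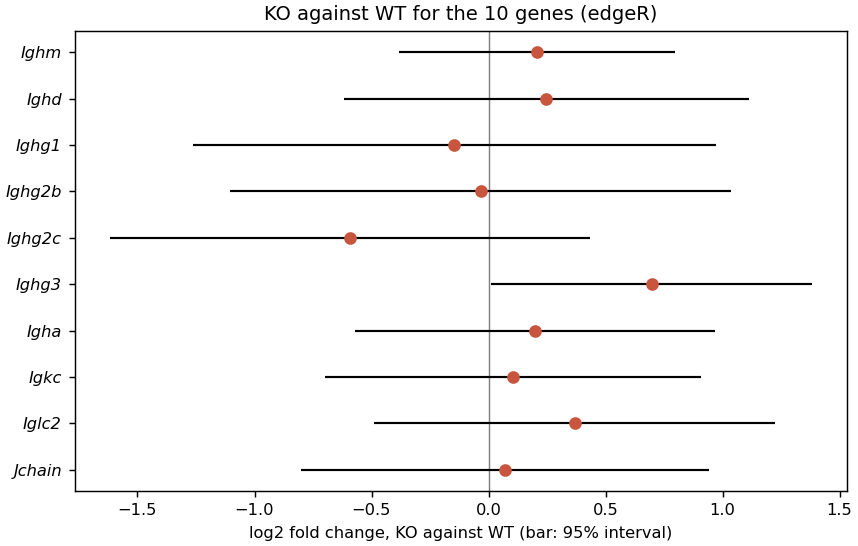
Log2 fold change of KO against WT for each gene (points) with its 95% interval (bars) from the edgeR fit over all tested genes. The intervals of 9 genes span 0, and that of Ighg3 runs from 0.01 to 1.38 before adjustment for the number of genes tested.

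To compare the naive with the switched isotypes, ratios were formed within each library, which makes them independent of its depth. They compare counts of constant genes and do not measure shares of naive or switched cells. Of 8 ratios tested by an exact two-sided permutation test, none had an adjusted p under 0.8, and the smallest p that 3 against 3 libraries allow is 0.1. The summed switched heavy chains (Ighg1, Ighg2b, Ighg2c, Ighg3 and Igha) over summed Ighm and Ighd gave a ratio of CPM of 0.786, 0.646 and 0.658 in the WT libraries and of 0.409, 0.834 and 0.803 in KO libraries. KO1 had the lowest ratio and KO2 and KO3 the highest, on either side of all WT libraries. The means were 0.696 ± 0.0776 in the WT libraries and 0.682 ± 0.237 in KO libraries (exact permutation test, p = 1). Without KO1 the log2 difference turned from -0.09 to 0.24 (exact permutation test, p = 0.2).

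Scaled per kilobase of exon, switched genes made up 38.6%, 34.2% and 33.8% of heavy chain signal in the WT libraries and 24.0%, 39.0% and 37.5% in KO libraries. Ighm alone made up between 52.8% and 65.5%, and Igha between 16.7% and 29.9%, with the lowest Igha and the highest Ighm share in KO1. These shares depended on the lengths used. With lengths of the secreted transcripts, Ighm made up between 38.8% and 51.4%, Igha between 25.2% and 42.0%, and all switched genes between 33.1% and 50.4%. Igha then exceeded Ighm in KO2 (38.85% against 38.77%) and KO3 (42.0% against 40.9%). KO1 again had the lowest Igha and the highest Ighm share. KO1 was therefore a library with as much Ighm and Ighd as WT1 and KO2, but with a switched level close to those of WT2, WT3 and KO3.

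**Figure D3:**
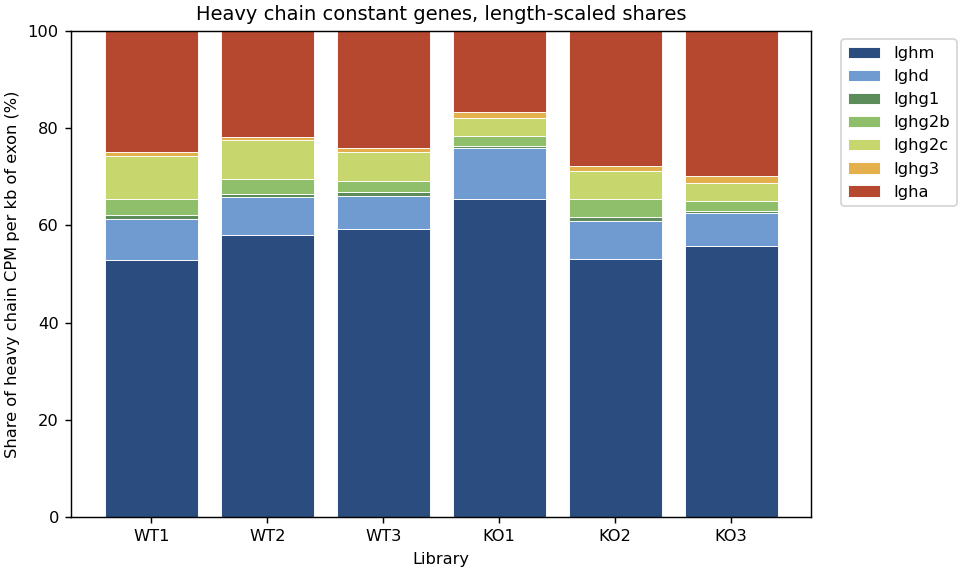
Stacked bars give the share of each heavy chain gene in the summed heavy chain CPM per kilobase of exon of a library, in percent. On this scale Ighm takes the largest share in all 6 libraries and Igha the next, and KO1 has the smallest Igha share, 16.7%. With lengths of the secreted transcripts, which are not plotted, Igha exceeds Ighm in KO2 and KO3.

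Iglc2 over Igkc, the lambda to kappa ratio as far as these genes show it, was the only 1 of the 8 ratios with separate groups. It was 0.0826, 0.0813 and 0.0735 in the WT libraries and 0.112, 0.0904 and 0.0877 in KO libraries, so all KO libraries lay above all WT libraries. The log2 difference was 0.28, or 1.22-fold (exact permutation test, p = 0.1, adjusted p = 0.8). Iglc2 shares words with Iglc3, and the division of such reads between them was not tested. The ratio leaves out the other lambda constant genes, and no ratio of all lambda genes to Igkc was tested. Iglc1 reached 57.8, 67.1 and 32.8 CPM in the WT libraries and 74.5, 73.1 and 44.4 CPM in KO libraries. Its highest WT level was thus in WT2, where those of Iglc2 and Igkc were in WT1. Igha over the summed Ighg genes was 2.70, 2.63 and 3.51 in the WT libraries and 3.18, 3.35 and 5.29 in KO libraries. KO3 was the highest, the groups overlapped, and the log2 difference was 0.39 (exact permutation test, p = 0.3, adjusted p = 1).

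Ighd over Ighm ranged from 0.116 to 0.164 in the WT libraries and from 0.121 to 0.162 in KO libraries, and the groups overlapped (exact permutation test, p = 0.8). Jchain over Ighm was 0.229, 0.155 and 0.145 in the WT libraries and 0.118, 0.200 and 0.203 in KO libraries (exact permutation test, p = 1). As for the switched isotypes, KO1 was the lowest for this ratio.

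**Figure D4:**
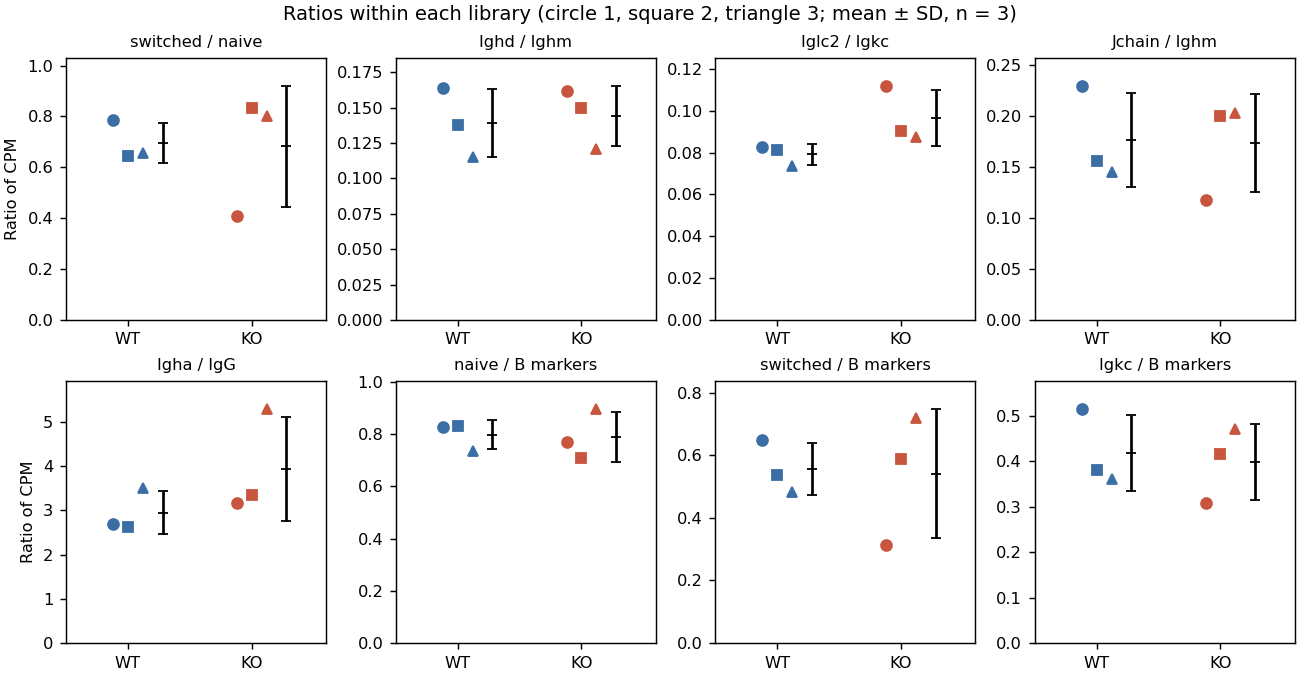
Each panel plots a ratio of CPM within the 3 WT and the 3 KO libraries, with symbols for the replicate number and the mean ± SD (n = 3) beside them, on an axis that starts at 0. The panel of Iglc2 over Igkc is the only panel in which all KO points lie above all WT points, and KO1 is the lowest point for switched over naive (0.409).

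The proportions among the Ighg genes were also examined, and their choice followed a look at the values, so they are described without a test. Ighg2c over Ighg2b was 1.30, 1.23 and 1.25 in the WT libraries and 0.927, 0.814 and 0.917 in KO libraries. The groups were thus far apart relative to the spread within each, with 1.26 ± 0.0350 in the WT libraries and 0.886 ± 0.0627 in KO libraries (SD, n = 3), although the sum of both genes overlapped between the groups, with 165.9 to 499 CPM in KO and 209 to 593 CPM in WT libraries. Ighg2c made up 47.2%, 48.2% and 43.5% of the IgG heavy chain counts in the WT libraries and 36.3%, 35.7% and 32.6% in KO libraries. Ighg3 made up 8.36%, 6.13% and 12.5% in the WT libraries and 19.1%, 11.4% and 22.6% in KO libraries, where KO2 overlapped with WT3. Since Ighg2b and Ighg2c have 186 words of 31 bases in common, a different division of shared reads is possible, and its part in the ratio was not tested.

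The levels of the 10 genes were set beside markers of the cell types that the preparation could hold. The summed CPM of 14 B cell markers (Ms4a1, Cd79a, Pax5 and others) was 4041, 2552 and 2497 in the WT libraries and 4264, 4626 and 2132 in KO libraries. WT1, KO1 and KO2 were the high libraries, as they were for Ighm and Ighd. Summed Ighm and Ighd over these markers was accordingly even, with 0.826, 0.833 and 0.735 in the WT libraries and 0.769, 0.707 and 0.895 in KO libraries (exact permutation test, p = 1). Summed switched heavy chains over the same markers varied more, with 0.649, 0.538 and 0.483 in the WT libraries and 0.315, 0.590 and 0.719 in KO libraries (exact permutation test, p = 0.9). Igkc over the markers ranged from 0.361 to 0.515 in the WT libraries and from 0.309 to 0.472 in KO libraries (exact permutation test, p = 0.9). All 14 B cell markers had a positive fitted change in KO against WT, with a median log2 fold change of 0.29, and 0 passed at an adjusted or an unadjusted p under 0.05 with edgeR, DESeq2 or limma voom. The part of B cell content in the levels of the immunoglobulin genes was not tested beyond these ratios.

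**Figure D5:**
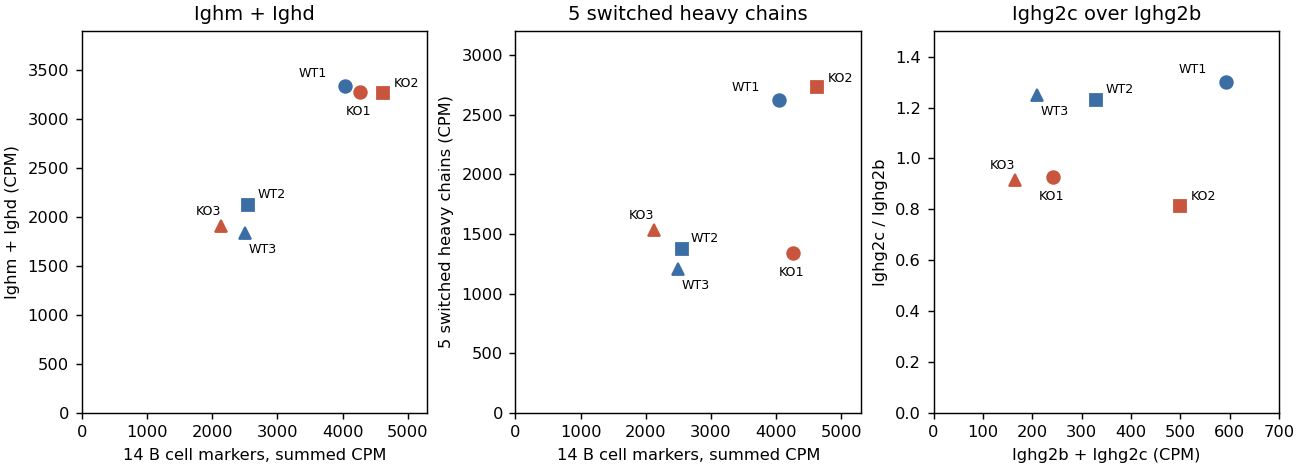
The first and second panels plot the CPM of summed Ighm and Ighd, and of the 5 summed switched heavy chains, against the summed CPM of 14 B cell markers in each library (WT blue, KO red). KO1 lies with WT1 and KO2 for the naive isotypes and with WT2, WT3 and KO3 in height for the switched ones. The last panel plots Ighg2c over Ighg2b against their summed CPM, with WT between 1.23 and 1.30 and KO between 0.814 and 0.927.

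Genes that work with the immunoglobulins, and markers of other cell types, were read from lists, in each of which edgeR called 0 genes at an adjusted p under 0.05. Over all lists other than the members, 17 of 155 tested genes had an unadjusted p under 0.05 with edgeR, where 6.25% of all tested genes did. Of the 17, 7 were markers of CD8a+ DCs, 4 of monocytes and macrophages and 1 of NK cells. This left 5 in the lists of immunoglobulin partners, B cell subsets and class switching, 2 of them in the last. The number was 15 of 155 with limma voom and 18 of 159 with DESeq2, which called Cadm1 and Cd5l. Among the other constant genes, Iglc1 averaged 52.6 ± 17.8 CPM in the WT libraries and 64.0 ± 17.0 in KO libraries, and Iglc3 34.5 ± 19.1 and 43.6 ± 16.7 (SD, n = 3). Ighe, of the IgE heavy chain, had at most 1.37 CPM and none in WT3, where 3 counts correspond to 0.368 CPM, and Iglc4 had at most 0.12 CPM. Neither passed the filter on low counts, and Ighg2a was not found by its symbol among the genes counted.

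Of 12 signaling partners of the B cell receptor, 11 had a positive and 1 a negative fitted change in KO libraries, with 1 at an unadjusted p under 0.05. This was Cd81, a tetraspanin of the cell surface, with 57.7 ± 12.2 CPM in the WT libraries and 97.2 ± 25.5 in KO libraries (unadjusted p = 0.00805, adjusted p = 0.659, edgeR). Cd79a, which carries the signal of the receptor, had 399 ± 134 and 479.9 ± 199 CPM, and the kinase gene Syk 314 ± 93.6 and 441 ± 211 CPM. In the list of B cell markers, Cd37 had 439 ± 37.6 and 475 ± 119 CPM, and Pax5, the factor that keeps B cell identity, had the smallest p (0.154, adjusted p = 0.819, edgeR).

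The lists of B cell subsets gave no common direction, and values in parentheses after gene names are fitted log2 fold changes of KO against WT from here on. Of 6 follicular genes, 3 had a positive and 3 a negative fitted change. Klf2 (-0.15) and Ccr7 (-0.19) were among them, and both are also expressed by T cells. Of 8 marginal zone genes, 6 had a positive and 2 a negative change, with Dtx1 (-0.11) and Plac8 (-0.19) named for their mean CPM and Cd9 (0.36) at an unadjusted p of 0.0391 (edgeR). Of 6 genes of B-1 cells, 2 had a positive and 4 a negative change, among them Ahnak (-0.07) and Cd5 (-0.33, unadjusted p = 0.0422, edgeR), and the latter is also a T cell gene. Of 10 germinal center genes, 7 had a positive and 3 a negative change, with Mki67 (0.29), Bcl6 (0.24) and Gcsam (0.37) named by level or p.

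Class switching joins distant stretches of the heavy chain locus and depends on DNA repair. Of the 16 genes of this list, 4 had a positive and 12 a negative fitted change in KO libraries, and 2 had an unadjusted p under 0.05 with edgeR. The ranges were separate for 4 of 16, against 11.5% of all tested genes. Supt5 (0.03) and Rif1 (-0.0012), named for their mean CPM, had fitted log2 changes near 0.

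Of 18 tested plasma cell genes of 20 listed, 16 had a positive and 2 a negative fitted change in KO libraries, with a median log2 fold change of 0.10 and 0 at an unadjusted p under 0.05 with any of the 3 tools. Sdc1, which encodes the plasma cell antigen CD138, reached 13.8, 7.42 and 6.95 CPM in the WT libraries and 8.57, 13.95 and 4.70 CPM in KO libraries. Mzb1, an endoplasmic reticulum helper of IgM and IgA secretion, reached 67.4, 32.7 and 24.6 CPM in the WT libraries and 49.3, 55.2 and 27.5 CPM in KO libraries. WT1 and KO2 were the highest libraries for Sdc1 and Mzb1, as they were for Igha, Igkc and Jchain. Hsp90b1 (0.12) and Edem1 (0.00015) were named for their mean CPM, and Slamf7 (0.24) the smallest p (0.174, edgeR), but these genes serve many cell types. Of 9 receptors that bind or carry immunoglobulins, 8 had a positive and 1 a negative fitted change in KO libraries. Fcmr, the IgM receptor, averaged 200.7 ± 65.6 CPM in the WT libraries and 216 ± 69.5 in KO libraries, Fcgrt 60.3 ± 2.81 and 67.6 ± 4.73 CPM, and Fcgr1 6.25 ± 2.49 and 11.7 ± 5.71 CPM. Pigr, which exports polymeric IgA across epithelia, had at most 1.94 CPM.

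Markers of T cells and of CD8a+ DCs were present in all libraries. The summed CPM of 11 T cell genes was 3857 to 5025 in the WT libraries and 2664 to 4794 in KO libraries, and all 11 had a negative fitted change, with Cd8a at -0.31, Lck at -0.24 and Cd3g at -0.35. None of them was called by edgeR, DESeq2 or limma voom, and 4 had an unadjusted p under 0.05 with DESeq2 and 0 with the other tools. KO2, WT1 and KO1, the libraries with most Ighm, had the lowest T cell sums. Of 11 genes of CD8a+ DCs, 10 had a positive fitted change, and 7 had an unadjusted p under 0.05 with edgeR and 6 with DESeq2 or limma voom, against 6.25% of all tested genes with edgeR. The KO and WT ranges were separate for 5 of the 11, against 11.5% of all tested genes. The list had a sum of 963 to 1076 CPM in the WT libraries and 1282 to 1425 CPM in KO libraries. Wdfy4 (0.48), Irf8 (0.46) and Cadm1 (0.79) were the genes named there. Of 10 monocyte and macrophage genes, 9 had a positive change, with a median of 0.65, and Lyz2 was at 0.22, Ly6c2 at -0.24 and Cd5l at 1.26. An unadjusted p under 0.05 was found for 4 of them with edgeR, 3 with DESeq2 and 2 with limma voom. The monocyte and macrophage list summed to 1947, 1218 and 1295 CPM in the WT libraries and 2134, 2401 and 1305 CPM in KO libraries, and the list of 6 neutrophil genes to 1041, 299 and 251 CPM and to 1083, 1290.3 and 408 CPM. WT1, KO1 and KO2 were thus the high libraries for these lists too, as they were for Ighm, Ighd and the B cell markers. All 6 neutrophil genes (S100a9 0.70, S100a8 0.81, Ltf 1.02) and all 9 tested erythroid genes (Hbb-bs 1.48, Hba-a2 1.30) had positive fitted changes, and 0 of either list had an unadjusted p under 0.05 with any of the 3 tools. The erythroid list summed to 2716 CPM in KO2 and to between 249 and 864 CPM in the other libraries, so KO2, the library with the highest switched level, stood apart there. Plasmacytoid DC genes (Ly6d 0.33, Bst2 -0.09, Ccr9 -0.37) gave 2 positive and 4 negative changes, NK cell genes (Nkg7 -0.43, Gzma 0.10, Klra8 1.14) 4 positive and 2 negative, and CD4 T cell genes (Cd4 0.34, Izumo1r -0.09, Il2ra 0.54) 4 positive and 1 negative. The part of any of these cell types in the immunoglobulin levels was not tested.

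The genes most like the members over the 6 libraries were sought among 9215 genes outside the immunoglobulin loci with a mean of at least 10 CPM, by Pearson's r of log2(CPM + 1). These values are a description over 6 points that share library and depth, and no test was made. For Ighm they were Slamf1, Ptpro, Ffar1, Chchd10 and Bmp2k, with r between 0.991 and 0.996, and the B cell gene Ms4a1 took place 16 with 0.986. For the summed switched heavy chains they were Oas1a, Sfr1, Dnajc21, Cep57 and Prdx2, with r between 0.980 and 0.992, and Ms4a1 came only at place 789 with 0.698. For Igkc they were Lst1, Necap1, Creld2, Agtrap and Ggta1, with r between 0.978 and 0.988, and Mzb1 took place 30 with 0.951. For Jchain they were Gzma, Rbmxl1, Med17, Hmgn5 and Dnajc21, with r between 0.979 and 0.999. Gzma, a granule protease gene of cytotoxic cells, reached 179.6, 69.8 and 57.2 CPM in the WT libraries and 82.5, 156 and 90.5 CPM in KO libraries, and thus followed the order of Jchain in KO2, KO3 and KO1 as well as in WT1, WT2 and WT3.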

How the data were processed

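RNA-seq libraries of CD8a+ splenic leukocytes of WT and KO mice, 3 of each, were analysed. Each deposited table holds expected counts (estimated by the authors, partly fractional) for Ensembl genes, as judged from the values. The genome builds GRCm38 and mm10 are named in the submitters' processing notes, and the aligner, counting program, annotation and use of strand are not given in the sources used here. Counts were rounded, and 44121 of 44678 identifiers (98.8%) matched GENCODE M21. The fit over all genes used edgeR 4.0.16 in R 4.3.3 (TMM, filterByExpr with a minimum count of 10 and total of 15, quasi-likelihood test, Benjamini-Hochberg over 13024 genes, threshold 0.05). Ratios within libraries were compared by exact permutation tests. The procedure was run on simulated data with known changes, where it missed some of them and made some false calls.

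The members, gene lists and tests were chosen with earlier results of these data known. All 10 members are named. From each list the genes called, the 2 of highest mean CPM and the gene of smallest p were named, and Sdc1, Mzb1, Pigr and the unlisted likeness places were added after values were seen. Alternatives were DESeq2 1.42.0, limma 3.58.1 (voom), other scalings and filters, the replicate block, and each library left out. Totals of 8143971 to 8876570 counts set the floor of 3 counts at 0.338 to 0.368 CPM, which covers counting error only. Some genes that this rule would name, and some sequences, are not reported here. The other experiments of the study were not analysed here.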

Additional observations from a re-analysis of the deposited data

How the results depend on the processing

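The number of genes called in KO against WT, 4 in the comparison as reported, was 53 with DESeq2, 12 without a filter on low counts, 9 with the replicate block, and between 2 and 94 with 1 library left out, with 94 without KO replicate 3 and 2 without WT replicate 1 or WT replicate 3. Without WT1 and KO2 together, an alternative chosen after the data were seen, edgeR called 0 genes, with 715 at an unadjusted p under 0.05. No member was called under any alternative, the lowest adjusted p being 0.344. Of 150 member values under the alternatives, 135 kept their direction and 15 turned, all with 1 library left out. Without KO replicate 2, the log2 fold change was -0.15 for Igha, -0.18 for Igkc and -0.22 for Jchain. Without WT replicate 3, it was -0.0021 for Igha, -0.020 for Ighd, -0.13 for Igkc and -0.21 for Jchain. Without WT replicate 2, it was -0.08 for Igkc and -0.11 for Jchain. Ighg1 and Ighg2b turned without KO replicate 1 (0.14 and 0.10), KO replicate 3 (0.03 and 0.25) or WT replicate 1 (0.38 and 0.43). With 1 library left out, values reached from -0.15 to 0.60 for Igha, from -0.020 to 0.70 for Ighd, from -0.84 to 0.38 for Ighg1, from -0.65 to 0.43 for Ighg2b, from -0.18 to 0.59 for Igkc and from -0.22 to 0.65 for Jchain. Without a turn, they ran from -1.11 to -0.10 for Ighg2c, from 0.43 to 1.15 for Ighg3, from 0.04 to 0.48 for Ighm and from 0.10 to 0.91 for Iglc2.

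The log2 difference of the ratios ran, with 1 library left out, from -0.27 to 0.24 for switched over naive, from -0.070 to 0.18 for Ighd over Ighm, from -0.17 to 0.22 for Jchain over Ighm, from -0.11 to 0.059 for naive over B cell markers, from -0.36 to 0.24 for switched over B cell markers and from -0.21 to 0.10 for Igkc over B cell markers. Iglc2 over Igkc (0.17 to 0.35) and Igha over IgG (0.16 to 0.53) stayed positive. Naive over B cell markers was 0.012 per kilobase of exon. Without WT1 and KO2 it was 0.085, Igkc over B cell markers was 0.043 and Jchain over Ighm was 0.043. The ratios could not pass 0.05 at 3 against 3 libraries, so their p-values say nothing of stability.

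With the replicate block, the number of genes called rose to 9 and no member was called. The same-numbered libraries share only a number. Their deviations correlated with -0.0028, -0.25 and 0.16, and the strongest correlation, 0.36, was between WT1 and KO2. The authors' division of reads between Ighg2b and Ighg2c, and between Iglc2 and Iglc3, could not be examined from the counts.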
